A study of Mus musculus with 16 samples.

Results

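The phagocyte NADPH oxidase is an enzyme complex, and its transcripts were followed here through 5 genes, Cybb, Cyba, Ncf1, Ncf4 and Rac2, in the mouse corpus callosum during and after cuprizone (CPZ) feeding. All probes whose transcript accession maps to 1 of these symbols were taken, which gave 8 of the 41174 probes of the array and 5 of the 18749 genes that could be named. CPZ is a copper chelator that kills oligodendrocytes when mixed into chow, and the corpus callosum, the large white matter tract between the hemispheres, loses its myelin. RNA of this tract was read on 16 Agilent 4x44K mouse arrays with a single dye. The mice were male wild-type C57BL/6, aged 7 to 8 weeks by the methods, and carried no transgene or deletion. The groups comprised 3 arrays of untreated controls on normal chow, 3 arrays of mice given CPZ for 2 weeks, 4 of mice given it for 4 weeks, and 6 arrays of mice returned to regular diet after 4 weeks of CPZ. The labels give 0.2 to 0.4% CPZ in the chow and the methods give 0.2%. The methods match the age and sex of the controls to the 4-week group. The methods name 2 times of regular diet, 2 days and 14 days, and a figure legend of the paper gives n = 3 for each. The labels do not tell which of the 6 arrays belong to which, so the regular diet group is a mixture whose mean covers both.

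In phagocytes the oxidase passes electrons from NADPH across the membrane to oxygen and so makes superoxide. Cybb (gp91phox, also called NOX2) is the catalytic subunit, and Cyba (p22phox) is its membrane partner, without which the complex is not stable. Ncf1 (p47phox) and Ncf4 (p40phox) wait in the cytosol and move to the membrane on activation, together with the small GTPase Rac2, the form of Rac that is specific to blood cells. In the brain these genes are known mainly from microglia, the resident macrophages, and from infiltrating myeloid cells.

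The promoters of the members are shown because these genes share myeloid expression, and PU.1, the factor encoded by Spi1, is a known regulator of several of them. The promoter table from RefSeq (GRCm38.p6), which holds 250 bases before and 50 bases after a gene's start, matched 3 of the 5 members, Cybb (chrX:9469275-9469574, minus strand), Cyba (chr8:122432891-122433190, minus strand) and Ncf1 (chr5:134229576-134229875, minus strand). Ncf4 and Rac2 have no entry. Capitals mark the letters GAGGAA, a PU.1-type core, and CCAAT, both searched on either strand.
Cybb: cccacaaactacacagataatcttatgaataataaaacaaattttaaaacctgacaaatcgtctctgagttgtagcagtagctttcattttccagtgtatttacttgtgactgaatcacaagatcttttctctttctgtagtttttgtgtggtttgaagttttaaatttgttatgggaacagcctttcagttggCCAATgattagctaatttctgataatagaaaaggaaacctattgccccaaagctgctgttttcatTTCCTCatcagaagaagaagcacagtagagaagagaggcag
Cyba: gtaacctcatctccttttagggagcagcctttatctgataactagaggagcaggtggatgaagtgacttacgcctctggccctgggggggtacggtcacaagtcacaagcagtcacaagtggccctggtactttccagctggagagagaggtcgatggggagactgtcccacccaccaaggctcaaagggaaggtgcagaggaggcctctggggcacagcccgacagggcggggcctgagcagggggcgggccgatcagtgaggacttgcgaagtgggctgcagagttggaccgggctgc
Ncf1: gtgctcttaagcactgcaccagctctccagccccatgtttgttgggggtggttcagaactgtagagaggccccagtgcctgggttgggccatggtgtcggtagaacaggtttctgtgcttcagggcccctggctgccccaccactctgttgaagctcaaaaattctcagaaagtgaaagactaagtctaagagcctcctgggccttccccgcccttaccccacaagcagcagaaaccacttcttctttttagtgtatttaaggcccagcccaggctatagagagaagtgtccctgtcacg
The Cybb window holds CCAAT 56 bases upstream of the start and GAGGAA, on the opposite strand, 9 bases downstream of it. The Cyba and Ncf1 windows hold neither of these exact strings, and other forms of a PU.1-type site were not searched. Of the 32851 promoters of 300 bases in the table, 28.3% hold GAGGAA and 37.4% hold CCAAT on at least 1 strand. The Cybb promoter is also the poorest of these 3 in G and C, at 35.3% against 60.7% for Cyba and 54% for Ncf1.

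Scanner files and the processed table name their samples differently: for 14 of the 16 samples the column of the processed table matched the array of another sample, in 13 cases of another group. Values here follow the processed table, whose columns correlated with their array at r of at least 0.99998 and with no other array above 0.883. Under the recorded assignment no member and no other probe was called in any of the 5 comparisons. The arrays lay on 4 slides of 4 arrays, and between 57.3 and 72.2% of probes were well above background on an array. Regular diet arrays 1 and 2 stood apart from the other 4 in their mean of 13 microglial markers. It was 5.17 and 5.45 on the log2 scale against 2.20 to 2.50. The member differences of this group are therefore also given without them, and most results of the gene lists are not. Each array is 1 replicate as the labels number them, and p-values measure the spread between these arrays.

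Levels are log2 values of the processed signal over the 75th percentile of the array, so 0 is that percentile. Levels of different probes are not comparable with each other. Where a gene has several probes, probe 1 is the brighter.

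None of the 3 untreated arrays had Cybb, the catalytic subunit, well above background. Probe 1 of Cybb measured -6.04, -6.71 and -5.70 on the 3 untreated arrays. After 2 weeks of CPZ the level was -3.60, -4.77 and -3.69, with array 2 not well above background. After 4 weeks it was -3.21, -4.07, -2.08 and -3.40. On regular diet it was -1.60, -1.67, -2.78, -2.60, -2.26 and -2.87. The lowest signal that counted as well above background on the untreated arrays was at most -4.34, and all 4-week and regular diet arrays lay above this limit, as did 2 of the 3 arrays at 2 weeks. Probe 2 of Cybb is dimmer. It was well above background on 1 of the 4 arrays at 4 weeks and on 5 of the 6 regular diet arrays, and on none of the others, so it was not tested and its level has no order among the groups below background. Its mean on regular diet was -4.34.

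Cyba, the membrane partner, is read by 1 probe, well above background on all 16 arrays. It measured -0.58, -1.35 and -1.80 in untreated mice and 0.28, -1.14 and 0.10 after 2 weeks. After 4 weeks the level was -0.23, -0.15, 1.45 and 0.02. On regular diet it was 2.38, 2.91, 0.66, -0.04, 0.36 and 0.04. The 4-week and regular diet arrays all lay above the untreated arrays, whereas array 2 of the 2-week group fell inside their range.

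Ncf1, the cytosolic organiser of the complex, has 2 probes that do not give the same picture at 4 weeks. Probe 1 measured -2.82, -2.32 and -2.97 in untreated mice and -1.59, -2.47 and -1.42 after 2 weeks. After 4 weeks it spread over more than 3 log2 units, at 0.27, -2.92, -1.43 and -0.39. On regular diet it was 1.35 and 1.47 on arrays 1 and 2 and between -2.02 and -1.53 on the other 4. Probe 2 measured -2.81, -2.88 and -3.67 in untreated mice and -2.37, -3.61 and -2.00 after 2 weeks. It was -1.77, -3.74, -1.59 and -2.08 after 4 weeks. On regular diet arrays 1 and 2 it stood at 0.70 and 1.06, and on the other 4 between -2.74 and -2.03. For both probes array 2 of the 4-week group lay within or below the range of the untreated arrays, and only the regular diet arrays were completely above them.

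Ncf4, which binds phosphoinositides of the phagosome membrane, is read by 1 probe. It measured -0.87, -1.31 and -1.38 in untreated mice and 0.52, -0.85 and 0.34 after 2 weeks. After 4 weeks it was 0.63, -0.38, 0.77 and 0.18. On regular diet it was 2.57, 3.03, 0.59, 0.39, 0.73 and 0.44. No array of the other 3 groups overlapped with the untreated arrays, although array 2 of the 2-week group missed them by little.

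Rac2, the GTPase of the complex, has 2 probes that moved alike. Probe 1 measured -1.66, -2.36 and -2.55 in untreated mice and -0.51, -1.79 and -0.66 after 2 weeks. After 4 weeks it was 0.05, -1.02, 0.23 and -0.19. On regular diet it was 2.30, 2.51, -0.69, -0.85, -0.53 and -0.69. Probe 2 measured -2.09, -2.73 and -2.75 in untreated mice and -0.68, -1.88 and -0.65 after 2 weeks. It was -0.76, -1.25, -0.21 and -0.63 after 4 weeks and 2.06, 2.12, -0.98, -0.96, -0.78 and -0.85 on regular diet. For both probes the 4-week and regular diet arrays lay completely above the untreated ones, and array 2 was the lowest of its group at 2 and at 4 weeks.

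**Figure D1:**
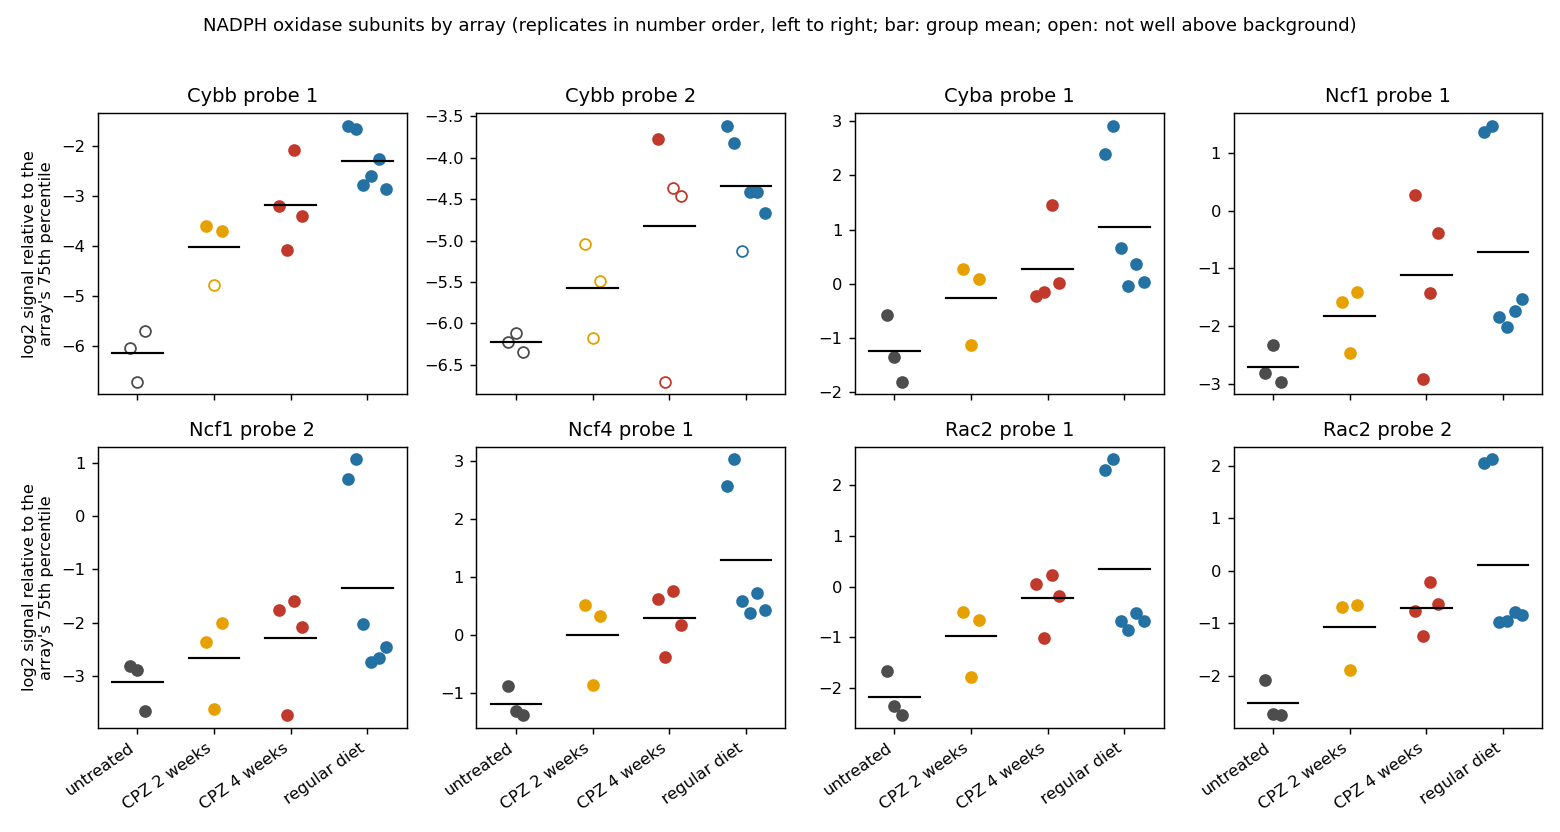
Level of each of the 8 probes on each of the 16 arrays, as log2 signal with the 75th percentile of the array set to 0, by group, with a bar at the group mean and open points where the probe was not well above background. Regular diet arrays 1 and 2, the first pair of that group, stand above the other 4 in every panel, and the 3 untreated arrays of Cybb are all open.

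The first comparison asked which subunits differed from untreated mice after 2 weeks of CPZ. Of the 7 tested probes, 6 were well above background on all arrays, and that of Cybb entered the test only through the groups where it was high, so it is left out of the counts against untreated mice. Its fold is a bound where every array of the brighter group measured it, and its measured differences from untreated mice only describe signals of which the lower ones are below background. All 6 had higher means than in untreated mice, with a median log2 difference of 1.09 against 0.03 over all 27505 probes tested. None of the 7 was called by limma, where a call needs 2-fold and an adjusted p (Benjamini-Hochberg) under 0.05, and 0.0691% of all probes were called higher. At an unadjusted p under 0.05, 3 of the 6 were higher against 4.25% of all probes, and the methods' kind of test, analysis of variance with Tukey's test run here over the groups of the same fit, also called none. Complete separation from the untreated arrays held for 2 of the 6, against 8.33% of all probes. Cybb was well above background on 2 of the 3 arrays, so its fold has no bound, and the measured difference from values below background was 2.13 ± 0.52 (SE, limma adjusted p = 0.137). Rac2 probe 2 differed by 1.45 ± 0.39 (adjusted p = 0.173, limma) and Ncf4 by 1.19 ± 0.41 (adjusted p = 0.328, limma). The smallest difference was that of Ncf1 probe 2, at 0.46 ± 0.61 (adjusted p = 0.893, limma). Under the normexp background correction Cybb turned to -0.13 and Ncf1 probe 2 to -0.04, and with array weights all 6 probes were called, where 3.88% of all probes were called higher.

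After 4 weeks of CPZ the same 6 probes again had higher means than in untreated mice, and none of the 7 tested was called. The median difference over the 6 probes was 1.55, against -0.03 over all probes. Of all probes 0.0836% were called higher. At an unadjusted p under 0.05, 5 of the 6 were higher against 5.05% of all probes, and the methods' test called none. Complete separation held for 4 of the 6, against 5.28% of all probes, and the exceptions were both probes of Ncf1. Cybb was at least 2.81-fold higher, with a measured difference of 2.96 ± 0.49 (limma adjusted p = 0.059). Rac2 differed by 1.96 ± 0.41 at probe 1 and 1.81 ± 0.36 at probe 2 (limma adjusted p = 0.096 and 0.090). Cyba differed by 1.51 ± 0.51 and Ncf4 by 1.48 ± 0.39 (limma adjusted p = 0.305 and 0.161). The probes of Ncf1 gave 1.59 ± 0.66 and 0.83 ± 0.57 (limma adjusted p = 0.448 and 0.741).

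The call at 4 weeks depended on how slides and arrays entered the fit. With slide as a fixed block, 4 of the 6 probes were called, Cyba at 2.10 ± 0.28, Ncf4 at 2.04 ± 0.22 and Rac2 at 2.51 ± 0.27 and 2.28 ± 0.24 (limma adjusted p between 0.0174 and 0.0286), while both Ncf1 probes were not, and 1.51% of all probes were called higher. On the 2 slides that held both groups, all 6 probes were higher on each, by 1.57 and 2.80 for Cyba, 2.01 and 2.07 for Ncf4 and 2.59 on both for Rac2 probe 1. With slide as a random block 3 of the 6 were called, with only the 2 groups in the fit 2, and with array weights 6, where 1.03%, 0.482% and 3.08% of all probes were called higher. Cybb was called too in each of these 4 fits. Leaving out array 2 of the 2-week group (2.96, adjusted p = 0.0496) or array 2 of the 4-week group (3.25, adjusted p = 0.030) made Cybb a call in limma, and leaving out any other single array did not. These Cybb values rest on untreated signals below background, and with each such signal raised to the limit of its array the difference at 4 weeks was 1.49 ± 0.47 (limma adjusted p = 0.244).

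Between 4 and 2 weeks of CPZ, none of the 7 probes was called, and 0% of all probes were called higher. None had an unadjusted p under 0.05 either, against 4.73% of all probes higher, and the methods' test called none. The differences were all above 0, from 0.30 ± 0.39 for Ncf4 (limma adjusted p = 0.770) to 0.75 ± 0.41 for Rac2 probe 1 (limma adjusted p = 0.488) over the 6 probes measured on all arrays. For Cybb it was 0.83 ± 0.49 (limma adjusted p = 0.505), and 0.46 ± 0.51 (limma adjusted p = 0.699) without array 2 of the 2-week group, which did not measure it. Without the same array, the difference turned to -0.13 for Ncf4, -0.05 for Rac2 probe 2 and -0.11 for Ncf1 probe 2.

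On regular diet after CPZ, Cybb was at least 5.23-fold higher than in untreated mice and was the only member called, by a probe that entered the test through the groups where it was high. The measured log2 difference was 3.85 ± 0.43 (SE, limma adjusted p = 0.0026), from an untreated level below background on all 3 arrays. With signals below background raised to the limit of their array, the difference was 2.39 ± 0.42 and remained a call (limma adjusted p = 0.017). That fit was added after the data were seen, and all 3 untreated values in it are array limits. Their spread is that of the limits, so its p does not measure how Cybb varied in untreated mice. Of all 27785 probes tested here, 0.788% were called higher. The other members differed by 2.48 ± 0.57 for Ncf4 (adjusted p = 0.062, limma), 2.30 ± 0.65 for Cyba (adjusted p = 0.158, limma), 2.53 ± 0.73 and 2.62 ± 0.70 for probes 1 and 2 of Rac2 (adjusted p = 0.170 and 0.120, limma), and 1.99 ± 0.85 and 1.76 ± 0.84 for those of Ncf1 (adjusted p = 0.425 and 0.476, limma). Complete separation held for all 6 probes without that of Cybb, against 4.89% of all probes, and 5 of the 6 had an unadjusted p under 0.05, against 6.05% higher among all probes. The median over the 6 was 2.39, against -0.03 over all probes.

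Without regular diet arrays 1 and 2, the Cybb difference was 3.52 ± 0.43 (limma adjusted p = 0.0067), and Ncf4 at 1.72 ± 0.34 and Rac2 probe 2 at 1.63 ± 0.32 were also called (limma adjusted p = 0.041 for both), where 0.696% of all probes were called higher. The means of the other members were then lower, at 1.50 ± 0.46 for Cyba, 1.50 ± 0.35 for Rac2 probe 1 and 0.92 ± 0.58 and 0.65 ± 0.50 for Ncf1 (limma adjusted p = 0.296, 0.098, 0.895 and 0.895). Both arrays were picked by their marker level and were the highest of the group for every member. Leaving them out also narrows the spread, so the calls of Ncf4 and Rac2 depend on that choice. Within the 3 slides that hold both groups, Cybb was higher on each, and the difference for Ncf1 probe 2 ranged from 0.07 to 2.69. The Cybb call was lost under the normexp correction, at 0.29 ± 0.22 (limma adjusted p = 0.415), and under a filter that requires every array above background, which removes the probe.

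**Figure D2:**
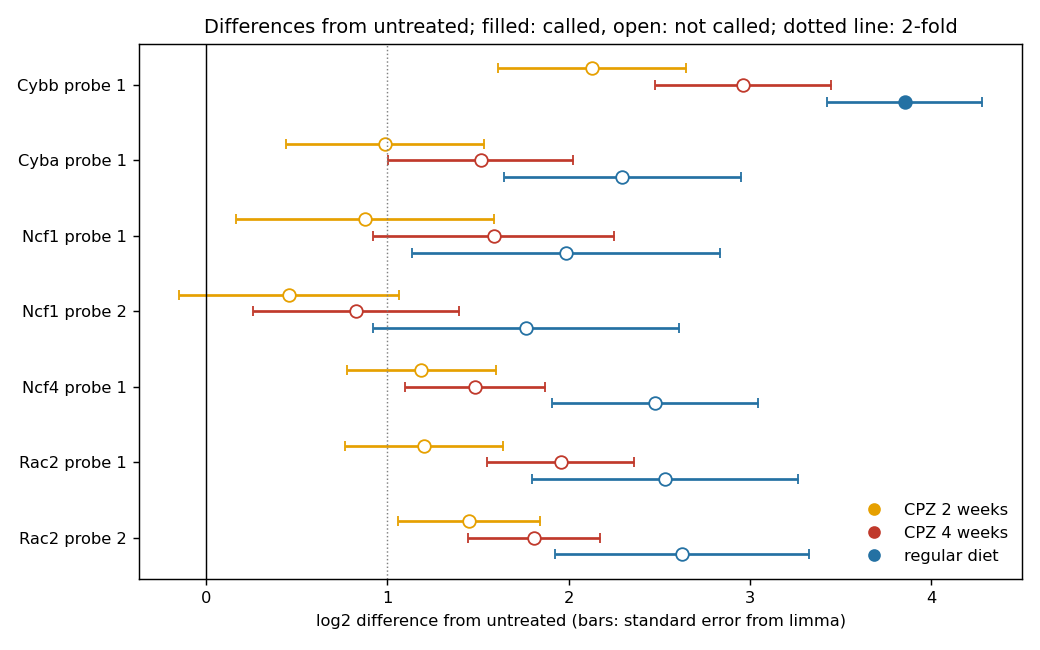
Difference of each tested member probe from untreated mice on the log2 scale, with the standard error from limma as the bar, at 2 and 4 weeks of CPZ and on regular diet. Cybb on regular diet, at 3.85, is the only filled, called point, and every difference lies above 0. The Cybb values are measured differences from an untreated level below background.

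Against 4 weeks of CPZ, the regular diet group gave no call among the members, where 0.0036% of all probes were called higher. Cybb differed by 0.89 ± 0.39 (limma adjusted p = 0.179) and was the only member with an unadjusted p under 0.05, against 13.3% of all probes higher. The methods' test called none. The other differences ran from 0.40 ± 0.78 for Ncf1 probe 1 to 0.99 ± 0.52 for Ncf4 (limma adjusted p = 0.769 and 0.246). Without arrays 1 and 2 they turned to -0.66 for Ncf1 probe 1, -0.18 for Ncf1 probe 2, -0.45 and -0.18 for Rac2 and -0.02 for Cyba. The comparisons with untreated mice share the same 3 control arrays, and those of the regular diet group were made on all 16 arrays in 1 fit.

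The other genes of the pathway were read from 4 lists of 36 genes in all, of which 34 had a probe and 27 were tested at 4 weeks. None was called in the main limma fit of any of the 5 comparisons, nor by the methods' test. Dock2, and on regular diet Spi1, were below background on all untreated arrays and entered the test only through the groups where they were high, so the counts leave them out. At an unadjusted p under 0.05, 8 of 26 were higher than in untreated mice at 4 weeks, against 5.05% of all probes, and 9 of 26 on regular diet, against 6.05%. The median difference was 0.40 at 4 weeks and 0.40 on regular diet. With slide as a fixed block, 6 of 26 were called higher at 4 weeks, against 1.51% of all probes. Array weights, with Dock2 and Spi1 counted, called 9 of 27 higher at 2 weeks (3.88% of all probes). They called 8 of 27 at 4 weeks (3.08%) and 10 of 28 on regular diet (3.56%). A random slide block called 2 of 27 at 4 weeks and 3 of 28 on regular diet (1.03% and 1.16%). A fixed block called Irf1 on regular diet (0.929%). Hvcn1 and Irf8 were called at 4 weeks with only the 2 groups (0.482%) and on regular diet without arrays 1 and 2 (0.696%).

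Of the other subunits and homologues, 3 were tested, and none had a higher mean than untreated mice at 4 weeks. Rac1, the Rac form found in most cells, differed by -0.14 ± 0.24 at 4 weeks and -0.03 ± 0.19 on regular diet (limma adjusted p = 0.905 and 0.944). Cybc1, the chaperone that Cybb needs to mature, differed by -0.31 ± 0.26 and 0.29 ± 0.25 (limma adjusted p = 0.803 and 0.634). The lowest at 4 weeks was Noxo1, an organiser of the homologous NOX1 oxidase, at -0.38 ± 0.34 (limma adjusted p = 0.818). Nox4 was not tested because no group had it well above background on all arrays, and the same holds for Nox1, Nox3, Noxa1, Duox1 and Duoxa2, whereas Duox2 and Duoxa1 had no named probe.

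Of the 13 activators and partners without Dock2, 6 had an unadjusted p under 0.05 and a higher mean at 4 weeks, and 6 on regular diet, beside the same 5.05% and 6.05% of all probes. The highest at 4 weeks was Hvcn1, the proton channel that balances the charge moved by the oxidase, at 2.00 ± 0.39 (limma adjusted p = 0.086), and it reached 2.96 ± 0.66 on regular diet (limma adjusted p = 0.054). The lowest of this list at 4 weeks was Rap1a, a small GTPase found with the membrane subunits, at -0.89 ± 0.35 (limma adjusted p = 0.404). Among the transcription factors Irf8 was the highest at 4 weeks, at 2.20 ± 0.40 (limma adjusted p = 0.079), and Irf1 the lowest, at 0.51 ± 0.30 (limma adjusted p = 0.669). The 7 genes that handle superoxide and peroxide had no member higher at an unadjusted p under 0.05 at 4 weeks or on regular diet. They ran at 4 weeks from -0.19 ± 0.41 for Cat, which breaks down hydrogen peroxide, to 0.65 ± 0.40 for Prdx6, a peroxiredoxin (limma adjusted p = 0.921 and 0.688).

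**Figure D3:**
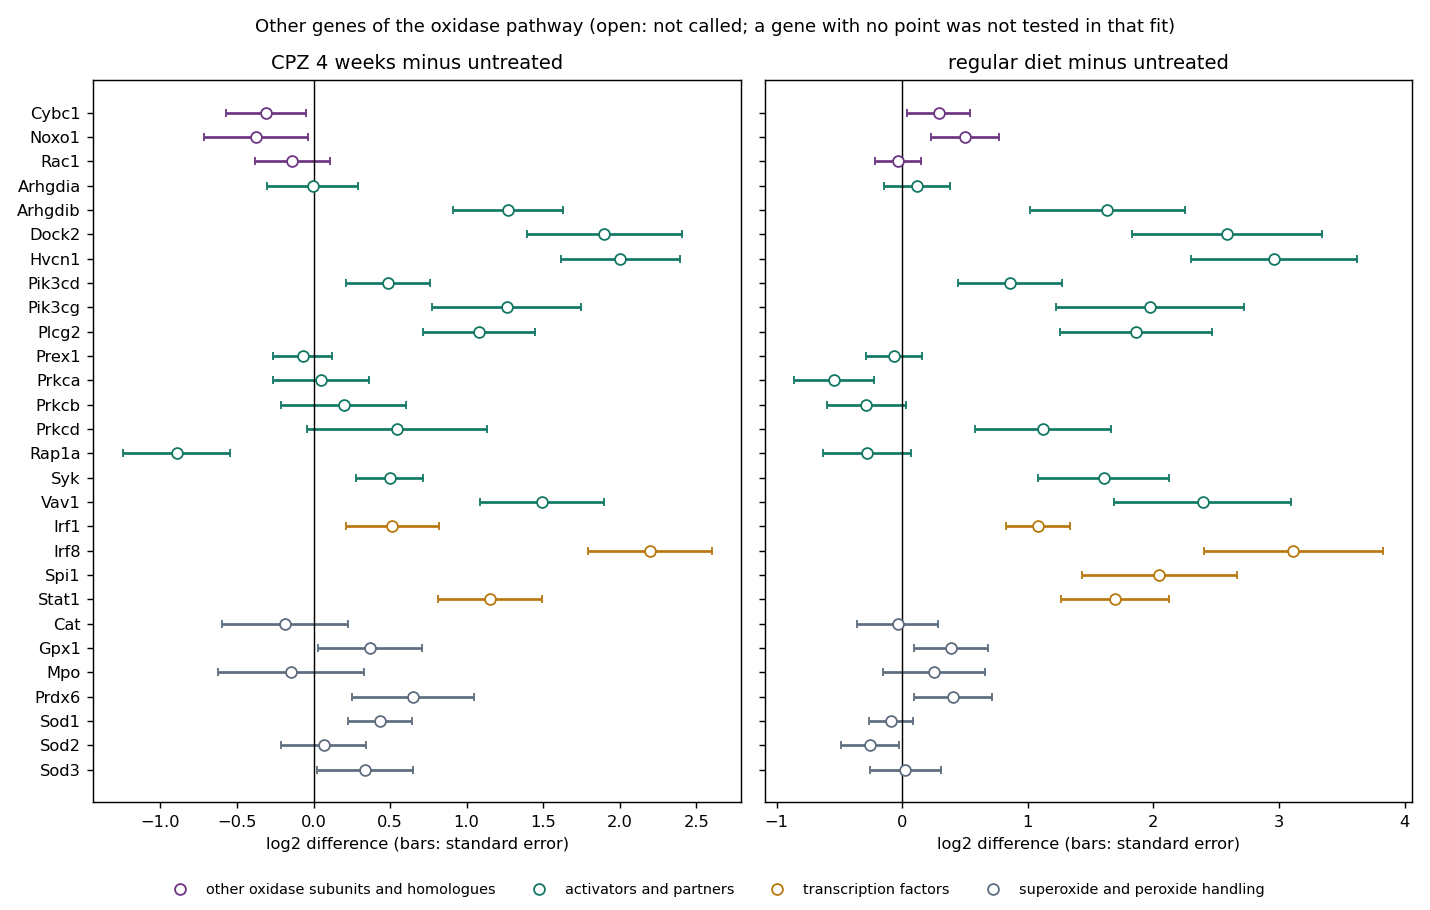
Difference from untreated mice on the log2 scale of the other pathway genes that were tested, with the standard error as the bar, at 4 weeks of CPZ and on regular diet, coloured by list. No gene was called. Hvcn1 (2.00 and 2.96) and Irf8 (2.20 and 3.12) lie far to the right, and the superoxide and peroxide genes stay near 0.

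Marker lists of several cell types were read on the same arrays. In bulk tissue, more cells of a type and more RNA per cell cannot be told apart. All 13 microglial and macrophage markers on the array were well above background on all 16 arrays. Their mean level was 0.97 to 1.96 in untreated mice, 1.30 to 2.45 at 2 weeks, 2.03 to 3.19 at 4 weeks and 2.20 to 5.45 on regular diet, and their summed level was 5.09 to 6.17, 5.76 to 6.99, 6.43 to 7.72 and 6.66 to 9.95. None of the 13 was called in the main limma fit against untreated mice, while 5 at 2 weeks, 9 at 4 weeks and 10 on regular diet were higher at an unadjusted p under 0.05, against 4.25%, 5.05% and 6.05% of all probes. With slide as a fixed block, 7 of the 13 were called higher at 4 weeks, against 1.51% of all probes. Array 2 of the 2-week group and array 2 of the 4-week group were the lowest of their groups for this list, as for most members. The neutrophil list had 9 genes on the array, and none of the 16 arrays had Elane, Ltf, Ngp or Mmp8, which encode granule proteins, well above background. S100a9 was well above background on 15 arrays, Mpo and Csf3r on 13 each, S100a8 on 11 and Camp on 1. The summed level of the neutrophil list was -1.55 to -0.70 in untreated mice, -1.24 to 0.08 at 2 weeks, -0.75 to 0.01 at 4 weeks and -0.97 to 1.17 on regular diet. Of this list 3 tested genes were measured in untreated mice, with median differences of 0.43 at 2 weeks, 0.23 at 4 weeks and -0.26 on regular diet and no call. Csf3r, a receptor that microglia also express, was below background on all untreated arrays and entered the test only through the other groups, where it was called, at least 4.55-fold higher at 4 weeks and 11.3-fold on regular diet (limma adjusted p = 0.047 and 0.017). These p-values rest on untreated signals below background. On regular diet Csf3r was 0.48 and 1.01 on arrays 1 and 2 and -2.20 to -1.90 on the others, so those 2 arrays raise the bound. The summed level of the 5 monocyte markers was 3.00 to 3.78 in untreated mice, 3.91 to 4.11 at 2 weeks, 3.16 to 3.85 at 4 weeks and 2.66 to 3.44 on regular diet. Only 2 of them were tested, with medians of 1.00, 0.37 and -0.02, and 1 was higher at an unadjusted p under 0.05 at 2 weeks. None of the 16 arrays had Ccr2, a marker of inflammatory monocytes, well above background. Ly6c2 was well above background on all 16, F13a1 on 14, Chil3 on 7 and Plac8 on 5. Of the 5 astrocyte markers 3 were higher at an unadjusted p under 0.05 in each comparison with untreated mice, with medians of 0.63, 0.70 and 0.71, and none was called. The choroid plexus list of 4 genes had medians of 0.06, 0.83 and -0.03. The part of these lists in the member values was not tested. The oligodendrocyte list, a check on the tissue, had a mean of 4.70 to 5.75 in untreated mice, -0.21 to 3.32 at 2 weeks and 0.71 to 3.73 at 4 weeks. On regular diet it was 1.67, 1.74 and 2.61 on arrays 1, 2 and 3, all below every untreated array. On the others it was 5.22 to 5.84, so array 3 was unlike the arrays it is grouped with when arrays 1 and 2 are left out. Which arrays belong to which time was not tested.

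The members were then set against the microglial list on the same array (this comparison was added once the levels were known). For Rac2 probe 1 the level minus the list mean was -3.53 ± 0.09 (SD, n = 3) in untreated mice, -3.00 ± 0.08 (n = 3) at 2 weeks, -2.94 ± 0.08 (n = 4) at 4 weeks and -2.98 ± 0.07 (n = 6) on regular diet. The spread within each group was thus below 0.1 log2 units, regular diet arrays 1 and 2 included. Every array of the CPZ and regular diet groups lay above every untreated array. The shift on regular diet was 0.55 (exact permutation p = 0.012, two-sided, the smallest that 3 against 6 arrays allow), and it was 0.53 at 2 weeks and 0.59 at 4 weeks (exact permutation p = 0.1 and 0.029, again the smallest possible). Rac2 probe 2 was shifted by 0.78, 0.44 and 0.64 (exact permutation p = 0.1, 0.057 and 0.012). Over the 21 such comparisons, of 7 probes at 3 times, the lowest adjusted p was 0.125, so none passed the correction. The 7 at 2 weeks could not pass, as their smallest possible p is 0.1, and those of Cybb use untreated values below background. With so few arrays the correction cannot decide whether the members shifted against the list.

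For Cybb the shift cannot be measured, because its untreated level is below background. With the untreated arrays at their limit it was -0.02 at 2 weeks, 0.12 at 4 weeks and 0.40 on regular diet, and the groups overlapped at each time. On regular diet arrays 1 and 2, with list means of 5.17 and 5.45, Cybb stood at -1.60 and -1.67, and on the other 4, with list means of 2.20 to 2.50, it stood between -2.87 and -2.26. Ncf1 probe 1 followed the list with no shift on regular diet, at -4.04 in both groups (SD 0.18, n = 6, against 0.69, n = 3), whereas at 4 weeks the difference spread widely, with an SD of 1.13 (n = 4). Ncf1 probe 2 was shifted by -0.22, -0.54 and -0.22 (exact permutation p = 0.5, 0.257 and 0.429). For Cyba and Ncf4 the shifts lay between 0.11 and 0.51 (exact permutation p between 0.1 and 0.714).

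**Figure D4:**
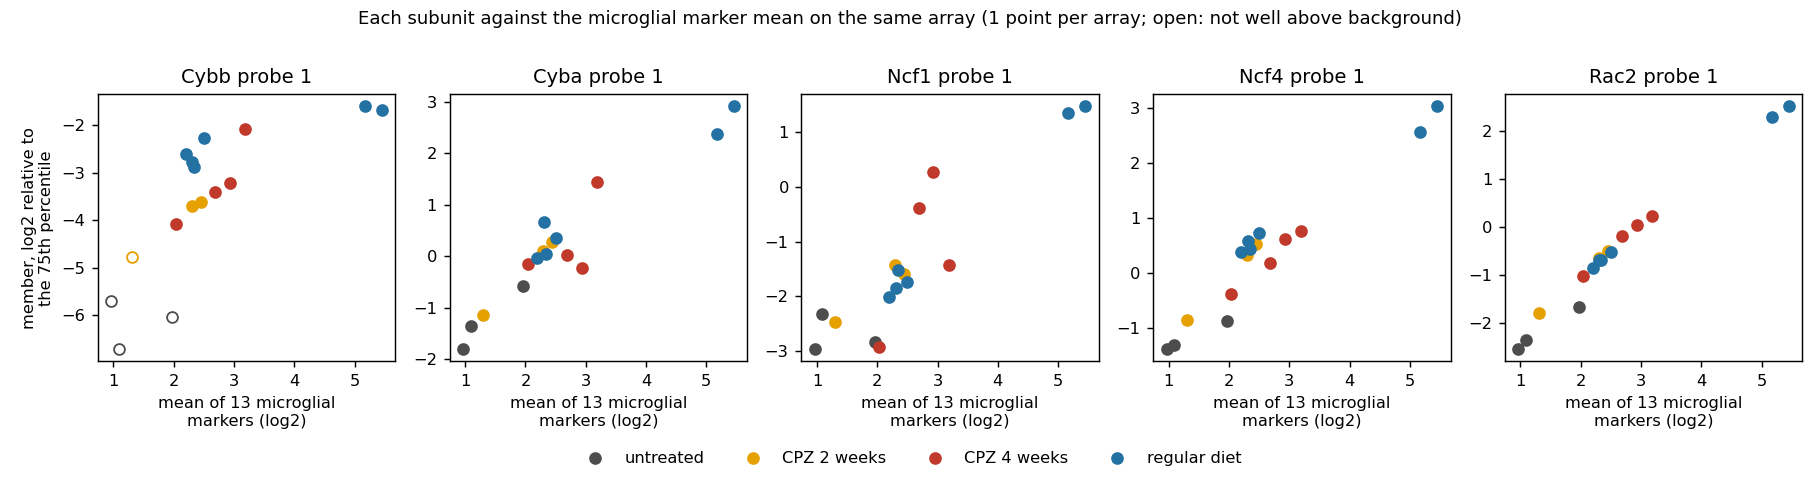
Level of the brighter probe of each member against the mean of 13 microglial markers on the same array, both on the log2 scale, with 1 point per array and open points where the probe was not well above background. Rac2 follows the list closely in all groups, with the untreated arrays slightly below the line of the others, while Cybb rises little from the list mean of 2.50 to 5.45 within the regular diet group.

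Across the 16 arrays, Pearson's r between pairs of members ran from 0.68 for Cybb, which 4 arrays did not measure, with Ncf1 to 0.98 for Ncf4 with Rac2, and from 0.45 to 0.94 without regular diet arrays 1 and 2. The lowest of the latter was Cyba with Ncf1. These values describe arrays that share groups and slides, and part of each r comes from the group differences. Taken as deviations from the group means, r between members ran from 0.56 to 0.99.

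The genes most like each member across the 16 arrays were sought among 18582 named probes well above background on every array. For Rac2 they were Ly86, a partner of the Toll-like receptor homologue RP105, Fcer1g, the signalling chain of Fc receptors, and Ctsz, a lysosomal protease (r = 0.998, 0.997 and 0.994). For Cyba they were C1qa and C1qb, chains of the complement component C1q, and Ctss, a lysosomal protease of antigen-presenting cells (r = 0.991, 0.983 and 0.984). For Ncf1 they were Havcr2, which encodes TIM-3, Tep1 and Csf1r, the receptor that microglia need to survive (r = 0.991, 0.980 and 0.979). For Ncf4 they were Naip2, a sensor of bacterial proteins, Hvcn1 and Lpxn, an adhesion adaptor (r = 0.989, 0.988 and 0.988). For Cybb, whose values on 4 of the 16 arrays are not well above background and have no order, they were Lyz1 and Lyz2, which encode lysozyme and are close copies whose probes may not tell them apart, and Lgals3, which encodes galectin-3 (r = 0.962, 0.958 and 0.949). Without the 2 arrays farthest from a member's median, these r ran from 0.927 to 0.994. Those were regular diet arrays 1 and 2 for all members but Cybb, for which they were untreated arrays 1 and 2. As deviations from group means r fell to 0.80 for each of the 3 genes of Cybb and stayed at 0.97 or above for the others.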

How the data were processed

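The 16 arrays were single-colour (Cy3) Agilent arrays of corpus callosum RNA. The authors deposited spot intensity from Agilent Feature Extraction, background-subtracted and detrended but not scaled between arrays (version 11.0.1.1 by the submitters' processing notes), and GeneSpring log2 values in which each array was scaled by its 75th percentile and each probe centred on the untreated median. Scanner arrays were assigned to samples through that table. Control and outlier spots were left out, spots of a probe were averaged, and each signal was divided by its array's 75th percentile before log2 was taken. Tested probes had a signal well above background throughout at least 1 group of the fit. Groups were compared with limma 3.58.1 in R 4.3.3, in 1 model of the 10 untreated and CPZ arrays and, for regular diet, 1 model of all 16, with Benjamini-Hochberg adjustment over all tested probes. A call needed an adjusted p under 0.05 and a 2-fold difference. Where a group was below background on all arrays, the fold is a bound: the brighter mean against the mean of a limit set on each dim array, which is the lowest signal there that passed as well above background, or the probe's own if higher. The fit was tested on simulated data.

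Probes were named through RefSeq accessions (GRCm38.p6), which matched 66.7% of the probes. All 16 columns of the processed table were used. The text names every probe of the members, and of the pathway lists the direct subunits, any called gene and the highest and lowest of each list at 4 weeks, and for likeness the 3 genes with the highest r. An item of the pathway lists is not reported here. Members and lists were chosen with earlier results of these data known. The alternatives were quantile and median scaling, normexp (offset 50, on the median signal, as no mean signal is in the files), other probe filters, slide and replicate blocks, arrays left out, other sets of arrays in the fit, array weights, values raised to the background limit (added after the data were seen), the methods' test (analysis of variance with Tukey's test, here over the 3 or 4 groups of a fit, with both times of regular diet as 1 group), the authors' processed values and the recorded samples. The number of arrays limits the precision.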

Additional observations from a re-analysis of the deposited data

Results flagged for a closer look

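Cyba on array 3 of the 4-week group stood at 1.45, apart from the other 3 arrays of that group, which lay between -0.23 and 0.02. The gap took 0.848 of the group's range, above Dixon's critical value for 4 arrays. This was 1 of 16 checks, of 8 probes in the groups of 4 and of 6 arrays, and chance marks about 1 in 20 groups. The same array had the highest level of Ttr, a marker of choroid plexus, among the 16 arrays, at 4.19, and its choroid plexus list mean of 3.23 was also the highest. Its microglial list mean of 3.19 was the highest of the 4-week group as well, and C1qa stood at 4.46 there against 2.70 to 3.07 on the other 3 arrays, and C1qb at 3.69 against 1.92 to 2.56. The part of these in the Cyba value was not tested.

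Probe 2 of Cybb was not tested in either fit, and yet it was well above background on 6 arrays, 1 of the 4-week group and 5 of the regular diet group, and on none of the 3 untreated arrays.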

How the results depend on the processing

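The member differences from untreated mice kept their direction under every alternative, except that normexp turned Cybb to -0.13 and Ncf1 probe 2 to -0.041 at 2 weeks. The number of the 7 tested probes called was less stable, and Cybb, which entered the test only through its high groups, is 1 of those called under each setting named with a count above 0. At 2 weeks it went from 0 to 7 with array weights (3.88% of all probes called higher), whose estimation did not fully converge. At 4 weeks it went from 0 to 5 with slide as a fixed block (1.51%), 4 with slide as a random block (1.03%), 3 with only the 2 groups compared (0.482%) and 7 with array weights (3.08%), and ran from 0 to 1 when single arrays were left out. On regular diet against untreated it went from 1 to 0 under normexp, the filter on every array and the recorded samples, to 2 with slide as a random block (1.16%), to 5 with array weights (3.56%) and to 3 without regular diet arrays 1 and 2 (0.696%), and stayed at 1 when single arrays were left out.

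Between 4 and 2 weeks, array weights turned Cyba to -0.0407, Ncf1 probe 2 to -0.13, Ncf4 to -0.15 and Rac2 probe 2 to -0.0095. The recorded samples turned Cybb to -1.57, Cyba to -0.45, Ncf4 to -0.26 and Rac2 to -0.30 and -0.36. With single arrays left out, Ncf1 probe 2 ran from -0.11 to 0.85, Ncf4 from -0.13 to 0.55 and Rac2 probe 2 from -0.0477 to 0.57.

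Between regular diet and 4 weeks, array weights turned Ncf1 probe 1 to -0.45 and Rac2 probe 1 to -0.0673, and the recorded samples turned Ncf1 probe 2 to -0.0481. Without regular diet arrays 1 and 2, Cyba was -0.016, Ncf1 -0.66 and -0.18, and Rac2 -0.45 and -0.18. Ncf1 probe 1 ran from -0.20 to 0.86 with single arrays left out. The cause of these shifts was not tested.

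With the replicate number as a block, the Cybb difference on regular diet was 4.10 (limma adjusted p = 0.033) and no other member was called. The numbers share no stated source, and the deviations of same-numbered arrays correlated between -0.64 and 0.41, above 0.1 in 5 of 19 pairs, so the arrays were not taken as paired, and 4 of 19 correlated best with their own number.

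Over all probes, the calls at 2 weeks went from 53 to 1754 with array weights, 311 with slide as a random block, 109 as a fixed block, 100 with values raised to the background limit, 97 under normexp, 87 with the filter on every array, 29 with median scaling and 27 with all 16 arrays, and to 0 with the replicate block, only the 2 groups or the methods' test, and single arrays left out gave 8 to 75. The calls at 4 weeks went from 45 to 477 with slide as a fixed block, 417 as a random block, 216 with only the 2 groups, 79 at the background limit and 1901 with array weights, and to 20 with quantile scaling, 12 without a filter, 3 with all 16 arrays, and 0 with the replicate block or the methods' test. Leaving out array 3 of the 2-week group or array 1, 3 or 4 of the 4-week group also gave 0, untreated array 3 gave 1, untreated array 2 gave 5, array 1 and array 2 of the 2-week group gave 21 and 100, and array 2 of the 4-week group gave 186. On regular diet they went from 222 to 13 by the methods' test, 24 with the replicate block, 327 with slide as a random block, 41 under normexp, 115 with the filter on every array, 128 with median scaling, 157 with only the 2 groups, 142 at the background limit and 1073 with array weights, and leaving out untreated array 1, 2 or 3 gave 106, 66 and 5, and regular diet array 1 gave 126. Between 4 and 2 weeks the calls ran from 0 to 2486 around 3, and between regular diet and 4 weeks from 0 to 1573 around 1, both highest with array weights. The latter reached 1274 with median scaling, 323 with quantile scaling, 1550 and 348 without array 1 or 3 of the 4-week group and 1305 without untreated array 1. The recorded samples gave 0 in all 5 comparisons. Few arrays per group, a probe of Cybb near background and a regular diet group of unknown times limit these results.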
